A study of Mus musculus with 48 samples.

Results

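Histone H3 acetylated at lysine 27 (H3K27ac) and at lysine 9 (H3K9ac) was mapped in hippocampal CA neurons of control mice, and the peak lists of both marks were set side by side. The comparison used 7 of the 48 samples of the series, 3 of H3K27ac (replicates 1, 3 and 4 by title) and 4 of H3K9ac (replicates 1 to 4), chosen by mark and genotype in their labels. The series as a whole examined adult mice with a conditional knockout (cKO) of Setd1b, whose product methylates lysine 4 of histone H3, against controls. All 7 samples came from C57BL/6J mice of 4 to 6 months with the genotype given as Control. The labels do not give the alleles behind that word, a Cre driver, or whether animals were pooled, and nothing in them says that libraries of a group came from separate animals, so the p-values measure the spread between these libraries. Chromatin was immunoprecipitated from fixed neuronal nuclei that had been sorted by flow cytometry, with the antibody ab4729 of Abcam for H3K27ac and an antibody of Millipore for H3K9ac. Control libraries of H3K4me3 (4), H3K4me1 (4) and neuron RNA (3) served to describe the places where the acetylation peaks lay, as did the acetylation libraries labelled cKO (4 of H3K27ac and 3 of H3K9ac).

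H3K27ac is written by the coactivators p300 and CBP and marks active enhancers and active promoters. H3K9ac is written mainly by Gcn5 and PCAF and is best known from active promoters, where it lies beside H3K4me3 on the nucleosomes that flank the gene start. H3K4me1 without H3K4me3 is the usual signature of enhancers and H3K4me3 that of promoters, and in neurons many enhancers of plasticity genes lie far from the genes they act on.

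Both marks covered the starts of most active genes, and few starts carried one mark alone, as described further down. The upstream sequences of 7 starts are shown first because the classes of starts differed in how many CpG dinucleotides they held. Each is the run of 250 bases before the gene start, 5′ to 3′ on the strand of the gene, from RefSeq on GRCm38.p6, with CpG dinucleotides in capitals.
Slc17a7, both marks, chr7:45163671-45163920, plus strand: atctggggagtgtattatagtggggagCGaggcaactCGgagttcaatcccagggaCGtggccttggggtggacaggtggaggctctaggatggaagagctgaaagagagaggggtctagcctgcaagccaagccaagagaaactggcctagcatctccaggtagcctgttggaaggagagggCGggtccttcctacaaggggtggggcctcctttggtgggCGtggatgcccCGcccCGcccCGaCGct
Nr4a1, both marks, chr15:101266596-101266845, plus strand: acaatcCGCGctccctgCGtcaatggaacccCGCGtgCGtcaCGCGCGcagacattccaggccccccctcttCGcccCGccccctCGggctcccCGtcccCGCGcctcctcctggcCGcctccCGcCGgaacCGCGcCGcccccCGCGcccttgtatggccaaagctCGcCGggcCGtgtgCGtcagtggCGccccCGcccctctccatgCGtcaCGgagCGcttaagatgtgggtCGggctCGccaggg
Uhrf1, H3K9ac alone, chr17:56304063-56304312, plus strand: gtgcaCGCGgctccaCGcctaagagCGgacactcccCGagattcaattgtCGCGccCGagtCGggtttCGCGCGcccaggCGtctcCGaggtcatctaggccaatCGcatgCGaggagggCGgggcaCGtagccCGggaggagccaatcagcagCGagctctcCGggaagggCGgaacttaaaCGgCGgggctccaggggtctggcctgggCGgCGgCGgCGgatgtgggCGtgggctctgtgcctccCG
Cldn5, H3K9ac alone, chr16:18776597-18776846, plus strand: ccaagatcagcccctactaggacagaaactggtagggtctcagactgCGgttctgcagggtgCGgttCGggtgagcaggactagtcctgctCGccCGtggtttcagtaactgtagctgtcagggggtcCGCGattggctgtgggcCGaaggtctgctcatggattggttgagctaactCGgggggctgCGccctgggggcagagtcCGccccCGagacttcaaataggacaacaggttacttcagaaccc
Ucma, H3K27ac alone, chr2:4975872-4976121, plus strand: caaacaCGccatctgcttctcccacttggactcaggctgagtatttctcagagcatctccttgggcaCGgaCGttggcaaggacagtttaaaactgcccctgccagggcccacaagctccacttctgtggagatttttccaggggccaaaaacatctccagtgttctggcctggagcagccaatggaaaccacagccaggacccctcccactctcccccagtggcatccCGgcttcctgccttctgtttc
Mylk3, H3K27ac alone, chr8:85381042-85381291, minus strand: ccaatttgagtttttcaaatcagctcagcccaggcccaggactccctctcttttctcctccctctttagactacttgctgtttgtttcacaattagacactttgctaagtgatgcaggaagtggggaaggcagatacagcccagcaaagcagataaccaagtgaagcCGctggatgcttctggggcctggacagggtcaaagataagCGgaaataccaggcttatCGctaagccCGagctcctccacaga
Hbb-bs, no peak, chr7:103827929-103828178, minus strand: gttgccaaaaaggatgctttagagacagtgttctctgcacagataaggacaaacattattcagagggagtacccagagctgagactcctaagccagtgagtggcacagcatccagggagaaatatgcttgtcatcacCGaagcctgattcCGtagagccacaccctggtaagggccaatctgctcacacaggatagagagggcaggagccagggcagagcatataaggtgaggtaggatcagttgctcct
These runs held 9 CpG dinucleotides upstream of Slc17a7, the vesicular glutamate transporter of excitatory neurons, and 34 upstream of Nr4a1, an immediate early transcription factor. The runs of the H3K9ac-alone starts held 30 (Uhrf1, a factor of maintenance DNA methylation in dividing cells) and 12 (Cldn5, a tight-junction protein of brain endothelium). Another Uhrf1 start of the same class, at chr17:56303337, held 10 and is not shown, having the smaller covered length (mean 699 against 987 bp of H3K9ac). Those of the H3K27ac-alone starts held 4 each (Ucma, a cartilage matrix protein, and Mylk3, a cardiac myosin light chain kinase), and that of Hbb-bs, an adult beta-globin gene, held 2. The choice of Ucma, Mylk3 and Uhrf1 was made with their values known.

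The 7 lists were of similar depth. The authors' caller used 37.0 to 39.7 M tags per H3K27ac library and 37.9 to 39.0 M per H3K9ac library, all against the same control input of 28.8 M tags. The fragment length and the lane stood with the mark. The fragment length estimated by the caller, which is also the smallest peak width it can report, was 176, 183 and 192 bp for H3K27ac and 153, 166, 167 and 174 bp for H3K9ac. By the lane number in the file naming, H3K27ac libraries were run in lanes 4, 4 and 5 and H3K9ac libraries in lanes 5, 6, 6 and 6, so only lane 5 held both marks, with 1 library each. H3K27ac replicate 1 stood apart within its group in having the most and the narrowest peaks.

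H3K27ac covered more of the genome than H3K9ac, in more and wider peaks. The H3K27ac lists held 197207, 146411 and 169046 peaks in replicates 1, 3 and 4, and the H3K9ac lists held 109396, 118504, 112656 and 115643 peaks in replicates 1 to 4. Every H3K27ac list was longer than every H3K9ac list, by 1.49-fold in the geometric means (0.57 on the log2 scale). After merging overlapping peaks, H3K27ac peaks covered 117, 101 and 121 Mb, which is 6.27, 5.41 and 6.46% of the effective genome. H3K9ac peaks covered 54.7, 62.9, 60.7 and 63.8 Mb, or 2.92, 3.36, 3.25 and 3.41%. The covered length was 113 ± 10.4 Mb (SD, n = 3) for H3K27ac and 60.5 ± 4.10 Mb (SD, n = 4) for H3K9ac, a 1.87-fold difference with no overlap between the groups. Both differences reached the smallest p that 3 libraries against 4 allow in the two-sided exact permutation test (p = 0.0286, adjusted p = 0.0357 over the 10 tests at the level of libraries). In lane 5 the single H3K27ac list was likewise longer (0.63 on the log2 scale) and covered more (1.14), and without H3K27ac replicate 1 the difference in peak number was 0.46.

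**Figure D1:**
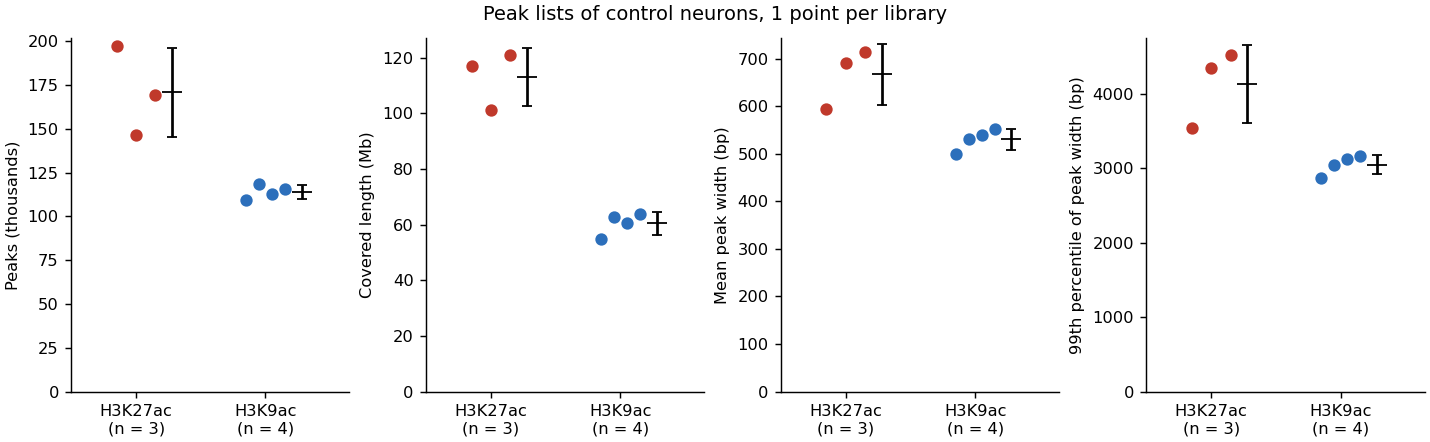
Peak number, covered length (Mb), mean peak width (bp) and 99th percentile of peak width (bp) of each control library, 1 point per library, with the mean and SD of each mark as a bar. The 3 H3K27ac libraries (101 to 121 Mb covered) sit above all 4 H3K9ac libraries (54.7 to 63.8 Mb) in each of the 4 panels.

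H3K27ac peaks were wider than H3K9ac peaks. The mean width was 594, 691 and 715 bp for H3K27ac and 500, 531, 539 and 552 bp for H3K9ac, and the median was 354, 394 and 403 bp against 290, 311, 315 and 325 bp. The 99th percentile was 3536, 4340 and 4514 bp for H3K27ac and 2868 to 3157 bp for H3K9ac. The groups did not overlap in any of these (log2 differences of 0.33, 0.31 and 0.43, exact permutation p = 0.0286 and adjusted p = 0.0357 for each). H3K27ac lists held 719, 992 and 1280 peaks over 5 kb and reached 32490 to 49510 bp, whereas H3K9ac lists held 138 to 252 such peaks and reached 12544 to 14689 bp. With the fragment length subtracted from every peak, the log2 differences in mean, median and 99th percentile were 0.40, 0.46 and 0.45. The width differences depended on the threshold of the caller: among peaks with a −log10 q of at least 5 the mean width differed by 0.13 (exact permutation p = 0.4), the median by 0.0065 (p = 1) and the 99th percentile by 0.35 (p = 0.0571), while among the 109396 strongest peaks of every library they differed by 0.68, 0.80 and 0.64 (p = 0.0286 each). That number is the whole list of H3K9ac replicate 1, whereas the H3K27ac lists held 146411 to 197207 peaks. The selection therefore left out more weak peaks of H3K27ac, and peaks of low fold enrichment were the narrower ones in every list.

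The marks lay at different kinds of places. In the H3K27ac lists 20.4, 24.97 and 21.8% of peaks overlapped a control H3K4me3 region (a region with a peak in at least 3 of the 4 H3K4me3 libraries). In the H3K9ac lists 42.9, 38.7, 40.002 and 38.6% did, so that the lowest H3K9ac library lay above the highest H3K27ac library (22.4 ± 2.34% against 40.03 ± 2.01%, SD, exact permutation p = 0.0286, adjusted p = 0.0357). The reverse held for H3K4me1 regions without H3K4me3, which took 68.4 ± 0.897% of H3K27ac peaks and 49.9 ± 0.957% of H3K9ac peaks (SD, n = 3 and 4, exact permutation p = 0.0286, adjusted p = 0.0357). Measured by length, 60.2 ± 2.30% of the H3K9ac-covered genome lay inside H3K4me3 regions and 30.2 ± 1.69% of the H3K27ac-covered genome did (p = 0.0286 by the same exact test). Peaks at neither H3K4 mark made up 6.53 to 12.2% of the H3K27ac lists and 8.59 to 11.1% of the H3K9ac lists, and these ranges overlapped (exact permutation p = 0.657). That last comparison changed direction with the settings: the H3K27ac share was higher by 1.597 percentage points at a −log10 q of at least 5 and differed by -4.94 points among equal numbers of the strongest peaks. The H3K4me1 lists were called in the broad mode of the caller and their regions covered 313 Mb, against 54.7 Mb for H3K4me3.

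**Figure D2:**
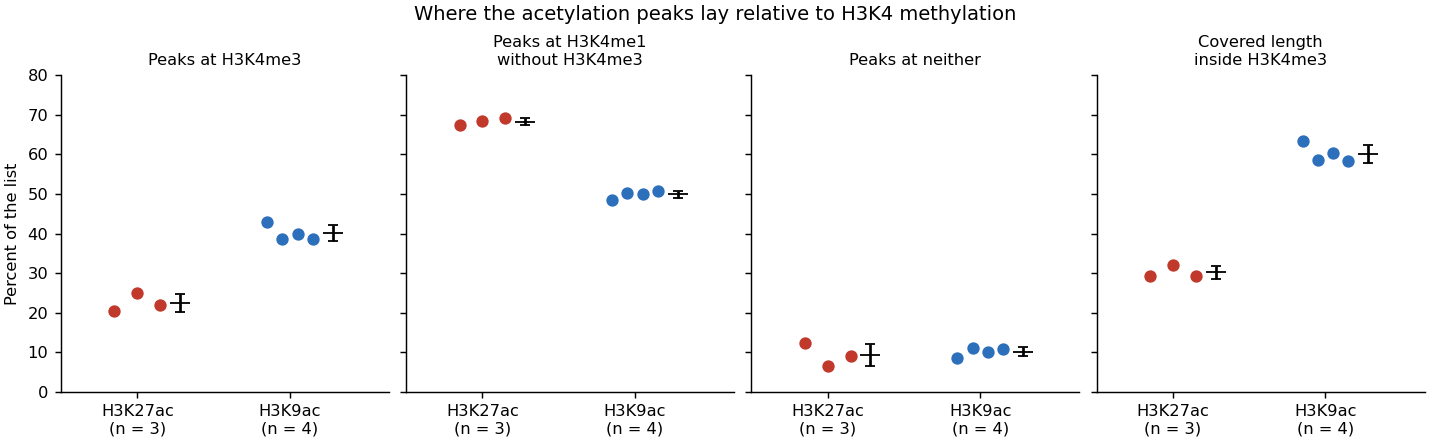
Percent of each library's acetylation peaks that overlapped control H3K4me3, H3K4me1 without H3K4me3, or neither, and percent of the covered length inside H3K4me3, 1 point per library with mean and SD. H3K9ac libraries are higher for H3K4me3 (38.6 to 42.9% of peaks) and H3K27ac libraries for H3K4me1 without H3K4me3 (67.4 to 69.2%), and the marks overlap for neither.

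The widest peaks separated the marks in the same sense. Of the widest 1% of peaks of each list, 72.4, 70.8 and 70.5% of the H3K27ac peaks and 98.7 to 99.3% of the H3K9ac peaks overlapped H3K4me3. A protein-coding gene start lay inside 23.6 to 26.8% of these H3K27ac peaks and 48.3 to 49.5% of these H3K9ac peaks. Peak summits were within 1 kb of a protein-coding start for 7.45 to 9.58% of H3K27ac peaks and 14.2 to 15.9% of H3K9ac peaks. The median distance from summit to the nearest start was 44.3 to 49.2 kb for H3K27ac and 19.3 to 20.7 kb for H3K9ac. Neither range overlapped between the marks, and no test was run on these 4 descriptions.

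Libraries of 1 mark shared more of their covered genome with each other than with the other mark. The Jaccard index, the length covered in both lists over that covered in either, was 0.548 to 0.625 among the 3 pairs of H3K27ac lists, 0.547 to 0.558 among the 6 pairs of H3K9ac lists and 0.314 to 0.352 among the 12 pairs across marks. The overlap was unequal from the 2 sides. Of the H3K9ac peaks, 75.2, 71.3, 72.8 and 71.4% overlapped an H3K27ac region found in at least 2 libraries. Of the H3K27ac peaks, 39.2, 44.7 and 40.1% overlapped an H3K9ac region found in at least 2 libraries. Among peaks with a −log10 q of at least 5 these shares rose to 90.2 to 92.6% and 54.0 to 63.3%, with the order of the marks kept. That limit was set on the counted peaks only, and the regions of the other mark still came from the full lists. The H3K27ac regions numbered 122669 and the H3K9ac regions 93658, so a peak had more H3K27ac regions to fall on.

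The score columns of the lists followed the sharing. Fold enrichment, the ratio of the pileup at the summit to the local background as the authors' caller gave it, had a median of 4.46, 4.06 and 3.74 in the H3K27ac lists and 4.04, 3.94, 3.89 and 3.81 in the H3K9ac lists. The medians overlapped between the marks. The median −log10 q was 5.89, 4.66 and 3.77 for H3K27ac and 3.99 to 4.14 for H3K9ac. The strongest peak of a list had a fold enrichment of 39.5, 27.8 and 26.4 for H3K27ac and 23.6 to 24.2 for H3K9ac. When each list was divided into deciles by fold enrichment, 17.1 to 22.6% of H3K27ac peaks in the lowest decile and 96.4 to 97.7% in the highest overlapped the other mark. For H3K9ac the same shares were 54.0 to 58.7% and 99.97 to 99.99%. In the highest decile 80.7 to 87.4% of H3K27ac peaks and 99.97 to 99.98% of H3K9ac peaks overlapped H3K4me3. The highest decile of either mark thus lay almost wholly at places that carried the other. Below it the H3K27ac lists diverged, with 70.3 to 76.1% of peaks overlapping H3K9ac in decile 9 and 49.6 to 55.1% in decile 8. Among peaks with a −log10 q of at least 5, the share at H3K4me3 differed by -38.5 points (H3K27ac minus H3K9ac). Width and fold enrichment moved together within every list. The Spearman correlation across peaks was 0.707 to 0.740 for H3K27ac and 0.697 to 0.706 for H3K9ac, where both values come from the same pileup. An overlap of 1 shared base is easier for a wide peak, and the part of width in the rise across deciles was not tested.

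**Figure D3:**
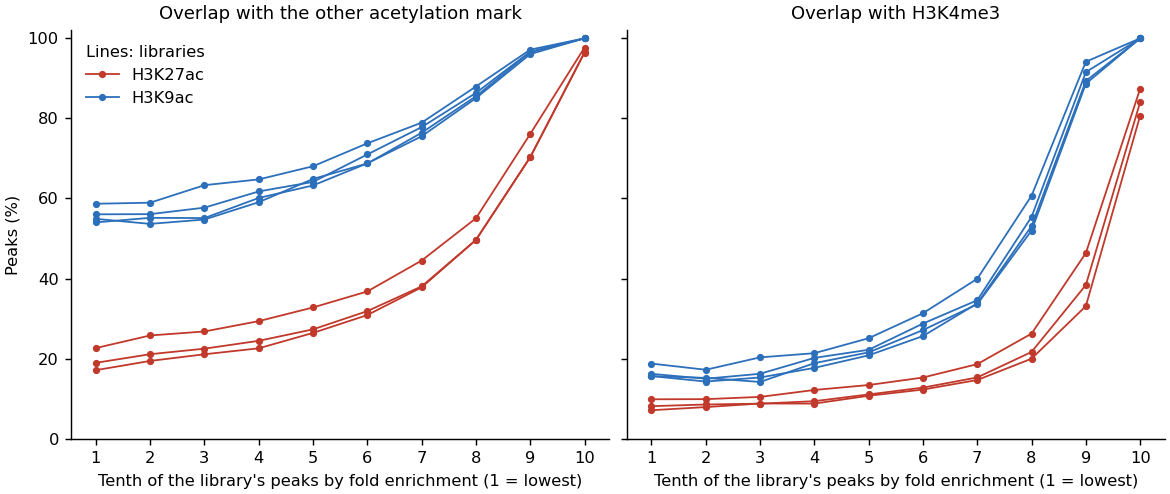
Percent of peaks overlapping the other acetylation mark (left) and control H3K4me3 (right) in each decile of fold enrichment, from the lowest (1) to the highest (10), 1 line per library. H3K9ac lines run above H3K27ac lines throughout, and for the other mark both end above 96% in the highest decile.

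Within a list, the H3K27ac peaks at H3K4me3 had median fold enrichments of 7.66, 6.41 and 6.19, and those at H3K4me1 without H3K4me3 had medians of 4.46, 3.87 and 3.59. The H3K9ac peaks at H3K4me3 had medians of 5.52 to 5.59, and those at H3K4me1 without H3K4me3 had medians of 3.52 to 3.82. In both marks, then, places at H3K4me3 held the stronger peaks. The H3K9ac peaks at H3K4me1 places were also short, with median widths of 238 to 273 bp against 339 to 376 bp for H3K27ac peaks there.

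Merging the peaks of all 7 libraries and keeping what had a peak in at least 3 of them gave 105942 regions. Of these, 34136 (32.2%) had a peak in all 7 libraries, 24686 (23.3%) had a peak in all H3K27ac and no H3K9ac library, and 2322 (2.19%) had a peak in all H3K9ac and no H3K27ac library. The remaining 44798 were mixed. With 3 H3K27ac and 4 H3K9ac libraries the classes are not equally easy to enter, and their sizes moved with the settings. The H3K9ac-only class held 4174 regions when H3K27ac replicate 1 was left out and 3633 without H3K9ac replicate 1. The H3K27ac-only class held 40220 without H3K27ac replicate 3. With a library left out, fewer libraries were needed to keep a region and to enter a class. Each class was larger whichever library was left out. H3K27ac-only regions outnumbered H3K9ac-only regions under each alternative setting given in the closing section.

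The classes were then compared in H3K4 methylation and in distance to gene starts, which had not defined them. Over all regions 31.6% overlapped H3K4me3, the median distance to the nearest protein-coding start was 35.1 kb and 12.8% lay within 1 kb of one. Shared regions overlapped H3K4me3 in 68.5% of cases and lay at a median of 15.004 kb from the nearest protein-coding start. H3K27ac-only regions overlapped H3K4me3 in 2.25% and H3K4me1 without H3K4me3 in 90.3%, and lay at a median of 86.7 kb from a start, with 0.786% of them within 1 kb of one. H3K9ac-only regions overlapped H3K4me3 in 50.9%, lay at a median of 8.37 kb and were within 1 kb of a start in 13.8%. At neither H3K4 mark lay 0.445% of shared, 7.49% of H3K27ac-only and 15.8% of H3K9ac-only regions, against 6.31% of all. Median widths were 1817 bp for shared, 681 bp for H3K27ac-only and 577 bp for H3K9ac-only regions, which is no independent measure, since regions are unions of the peaks that defined the classes. The H3K4me3 share of the H3K27ac-only class stayed between 2.08 and 9.06% over the alternative peak selections and with each library left out, where regions were rebuilt from the remaining 6. That of the H3K9ac-only class ranged from 42.6 to 93.3%. The highest value of each class was that at a −log10 q of at least 5.

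The acetylation libraries labelled cKO had taken no part in defining the classes. Shared regions had a peak in 96.0 to 97.9% of cases in the 4 H3K27ac libraries labelled cKO and in 96.1 to 98.0% in the 3 H3K9ac libraries labelled cKO. H3K27ac-only regions had a peak in 82.6 to 88.7% of cases in the H3K27ac libraries labelled cKO and in 9.28 to 15.6% in the H3K9ac libraries. H3K9ac-only regions had a peak in 3.88 to 6.37% of cases in the H3K27ac libraries and in 59.6 to 70.8% in the H3K9ac libraries. Over all 105942 regions the shares were 74.1 to 79.5% in the H3K27ac libraries labelled cKO and 54.7 to 62.4% in the H3K9ac libraries. The H3K27ac-only class thus lay above all regions for H3K27ac, while the range of the H3K9ac-only class for H3K9ac overlapped that of all regions. For the mark it lacked, each single-mark class lay far below all regions. No test was run on these shares.

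The covered length of each region was compared between the marks with limma on log2 of the covered length plus 100 bp. At a Benjamini-Hochberg adjusted p under 0.05, 48815 regions (46.1%) were covered over a greater length by H3K27ac and 7298 (6.89%) by H3K9ac, so 87.0% of the calls went to H3K27ac. Of the regions tested, 24686 had been kept through H3K27ac peaks alone. Another 2322 and 3725 had been kept through peaks in 4 or 3 H3K9ac libraries alone. In these the filter had fixed the direction beforehand, so their calls repeat the presence of peaks. The median difference over all regions was 0.97 on the log2 scale. Centring each library on its own median brought that to 0.60 and gave 42220 calls for H3K27ac and 19426 for H3K9ac, so that 68.5% of the calls went to H3K27ac. In the 34136 regions with a peak in every library, fitted alone, 11711 calls went to H3K27ac and 4188 to H3K9ac (73.7%).

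The difference was concentrated away from H3K4me3. Of the 33508 regions at H3K4me3, 19.8% were called for H3K27ac and 16.8% for H3K9ac, with a median log2 difference of -0.06. Of the 65745 regions at H3K4me1 without H3K4me3, 60.9% were called for H3K27ac and 1.82% for H3K9ac, with a median of 1.80. In that second group the median region was covered over 502, 421 and 531 bp by H3K27ac and over 0 bp in each H3K9ac library. The group includes 90.3% of the H3K27ac-only regions, which had been kept through H3K27ac peaks alone. Among regions with a peak in all 7 libraries the same contrast appeared: a median of -0.01 at the 23396 with H3K4me3, and 0.91 at the 10588 with H3K4me1 alone, where H3K27ac covered a median of 1210 to 1431 bp and H3K9ac 521 to 651 bp.

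The H3K27ac-only regions with the greatest covered length lay inside Celf2 and Erc2 or far from any start. A pair of them was inside Celf2, which encodes an RNA-binding splicing regulator. The first, chr2:6923245-6932402, was covered over 5054, 8808 and 8673 bp by H3K27ac in replicates 1, 3 and 4 and lay 51.2 kb from the nearest start, that of Celf2. The second, chr2:7188166-7195264, was covered over 2424, 6660 and 6740 bp. Replicate 1 was the lowest in both. Another region, inside Erc2, which encodes a protein of the presynaptic active zone (chr14:27855208-27863520), was covered over 5303, 8259 and 7673 bp, 233 kb from the nearest start. The fourth lay between genes at chr11:57399082-57405901, 113 kb from the start of Mfap3, and was covered over 5561, 5679 and 6675 bp. All 4 regions had H3K4me1 in all 4 libraries and 0 bp of H3K4me3. In the H3K9ac libraries labelled cKO, the Celf2 regions were covered over 558, 628 and 559 bp and over 412, 377 and 238 bp. The files and the reference used here give gene spans, so exons and introns are not told apart.

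The corresponding H3K9ac-only regions were shorter and lay closer to gene starts. The longest, chr13:23516160-23519080, was covered over 1295, 2325, 2301 and 2150 bp by H3K9ac in replicates 1 to 4, 11.96 kb from the start of H4c8, a replication-dependent histone H4 gene. H3K4me3 covered 2760 to 2857 bp of it. The region inside Ddx24, which encodes an RNA helicase (chr12:103421034-103422949), was covered over 1412, 1533, 1671 and 1487 bp by H3K9ac, 2.90 kb from the Ddx24 start, and over at least 1793 bp by H3K4me3 in each library. Both others carried no H3K4me3. One overlapped Scamp4 and Adat3 (chr10:80607365-80610065, 1698, 1792, 2138 and 1557 bp of H3K9ac) and had H3K4me1 in 1 of 4 libraries, over 218 bp. The other was inside Vars2, the mitochondrial valyl-tRNA synthetase gene (chr17:35661337-35663624, 1733, 1380, 1355 and 1581 bp), with 0 bp of H3K4me1. The Ddx24 region was covered over 197, 0 and 0 bp in the H3K9ac libraries labelled cKO, the Vars2 region over 1182, 1086 and 879 bp.

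Among regions with a peak in every library, those with the largest called differences toward H3K27ac had H3K4me1 without H3K4me3, as had the H3K27ac-only regions named above. The region inside Kalrn, which encodes kalirin, a protein of dendritic spines (chr16:34146551-34158243), was covered over 6388, 11128 and 10775 bp by H3K27ac and over 561, 532, 528 and 178 bp by H3K9ac. The lowest H3K27ac library was thus more than 5 kb above the highest H3K9ac library (log2 difference 4.15, SE 0.381, limma adjusted p = 0.00013). The regions inside Galnt17, a glycosyltransferase gene (chr5:131163197-131170684, mean 6397 against 337 bp), and Sult5a1, a sulfotransferase gene (chr8:123144095-123152404, mean 7528 against 410 bp), differed by 4.05 and 3.98 (limma adjusted p = 0.000262 and 5.49e-05). The fourth lay 407 kb from the start of Gfm2 (chr13:97545284-97553208, 7314 ± 730 against 340 ± 133 bp, SD, limma adjusted p = 2.47e-05). None of the 4 had any H3K4me3 in any library. The Sult5a1 region lay 5.88 kb from the start of that gene. The Galnt17 and Kalrn regions lay 137 and 180 kb from the nearest starts.

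The largest called differences toward H3K9ac lay within 5 kb of a gene start, at H3K4me3. The region over the start of Hk2, which encodes hexokinase 2 (chr6:82772954-82775024), was covered over 1597, 1709, 1671 and 1966 bp by H3K9ac and over 281, 183 and 337 bp by H3K27ac. Its log2 difference was -2.34 (SE 0.182, limma adjusted p = 6.02e-05), and H3K4me3 covered all 2071 bp of it in each library. The regions inside Dnttip2 (a nucleolar protein), Tsc22d1 (a leucine zipper protein) and Rexo4 (an exonuclease) lay 1.99, 4.60 and 1.63 kb from the starts of these genes. H3K9ac covered means of 2093, 2071 and 2268 bp there, and H3K27ac 256, 338 and 396 bp (log2 differences of -2.63, -2.38 and -2.32, limma adjusted p = 0.000135, 0.000628 and 0.000315).

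The widest shared regions were long acetylated stretches at Add2, Coro2b, Gse1 and Nfix. The widest, 61744 bp inside Add2, the gene of beta-adducin of the membrane skeleton (chr6:86044051-86105794), was covered over 55442, 61118 and 61530 bp by H3K27ac and 33411, 36513, 38300 and 37110 bp by H3K9ac, with 3276 to 4759 bp of H3K4me3. The region over Coro2b, which encodes a neuronal coronin (42133 bp), was covered over 41076 ± 723 bp by H3K27ac and 29748 ± 1333 bp by H3K9ac (SD). Both were called for H3K27ac (limma adjusted p = 0.00218 and 0.0104), and neither was called once each library was centred (log2 differences of 0.33 and 0.09). The regions at Gse1 (38490 bp) and Nfix, a nuclear factor I transcription factor (34335 bp), differed by 0.31 and 0.15 and were not called (limma adjusted p = 0.0534 and 0.274), and centring turned both to -0.07 and -0.23. Both were called for H3K27ac at a −log10 q of at least 5 and with an offset of 1000 bp.

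**Figure D4:**
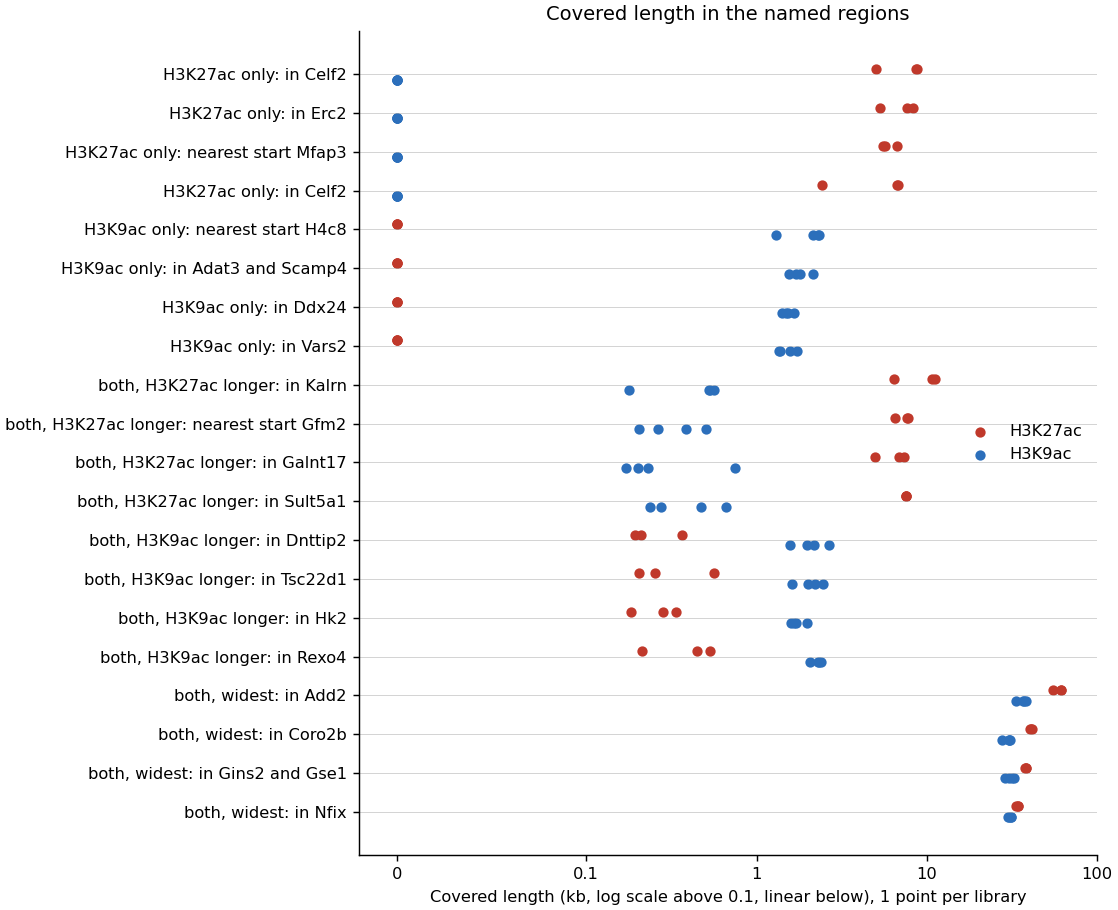
Covered length (kb, logarithmic above 0.1 kb and linear below) of 20 named regions, 1 point per library, H3K27ac in red and H3K9ac in blue. The H3K27ac-only regions reach 2.42 to 8.81 kb and the H3K9ac-only regions 1.30 to 2.33 kb, and in each of the 4 widest shared regions all H3K27ac points lie above all H3K9ac points, by a smaller ratio than in the other regions shown.

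At gene starts the marks were close to each other. Of 21238 starts of 17469 protein-coding genes in the RefSeq table, 62.0 ± 2.35% had an H3K27ac peak within 1 kb and 64.5 ± 0.195% had an H3K9ac peak (SD, n = 3 and 4). The groups overlapped (64.5, 59.8 and 61.7% against 64.4 to 64.8%), and the difference of -2.53 percentage points did not pass the exact permutation test (p = 0.0857, adjusted p = 0.0952). The overlap rested on H3K27ac replicate 1. Without it the groups separated, by -3.77 points, at the smallest exact permutation p that 2 libraries against 4 allow (p = 0.0667), and without H3K27ac replicate 3 the difference was -1.44 points. As a check of the build, 61.3% of the starts lay inside control H3K4me3 regions, against 4.16% of positions 100 kb away.

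The profile around the start differed in its downstream arm. In every library the share of starts covered was highest downstream of the start, at 200 bp for H3K27ac and 200 to 300 bp for H3K9ac. At 2 kb downstream 12.7, 10.6 and 12.1% of starts were covered by H3K27ac and 14.3, 16.6, 16.2 and 16.955% by H3K9ac, so the groups did not overlap. At 2 kb upstream the shares were 6.84 to 8.20% and 6.10 to 7.08%, which overlapped. At starts with a peak, 57.4 to 58.0% of the covered length within 2 kb lay downstream for H3K27ac, 62.2 to 62.8% for H3K9ac and 61.4 to 61.6% for H3K4me3. The median position of the strongest summit was 172 to 177 bp downstream for H3K27ac and 222 to 230 bp for H3K9ac. These are descriptions with no test.

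**Figure D5:**
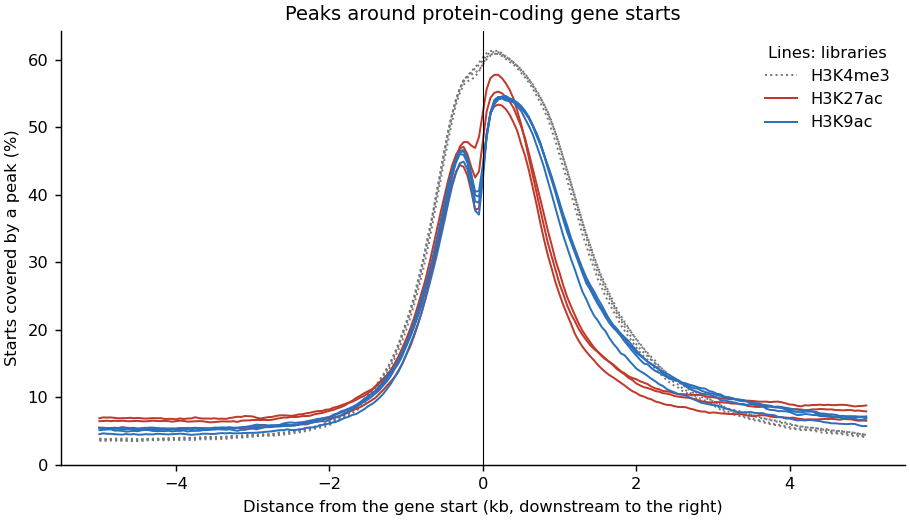
Percent of 21238 protein-coding gene starts covered by a peak at each distance (kb) from the start, 1 line per library, for H3K27ac, H3K9ac and H3K4me3 (dotted). At 2 kb downstream the H3K9ac lines (14.3 to 16.955%) run above the H3K27ac lines (10.6 to 12.7%), beside those of H3K4me3.

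The covered length within 1 kb of a start did not overlap between the marks at 2485 starts where H3K27ac was above (11.7%) and 3569 where H3K9ac was above (16.8%). By presence of a peak, 12226 starts (57.6%) had both marks in all 7 libraries, 6565 had no peak in any, 2117 were mixed, 216 had H3K9ac alone and 114 had H3K27ac alone. The 216 became 497 when H3K27ac replicate 1 was left out, and the 114 became 174 without H3K27ac replicate 3. A class then asks for fewer libraries, and both single-mark classes were larger whichever library was left out. Starts with both marks overlapped H3K4me3 in 98.8% of cases, starts with H3K9ac alone in 90.3% and starts with H3K27ac alone in 5.26%, against 64.5% of all starts (windows of 1 kb to each side). H3K4me1 was present at 96.8, 94.9 and 94.7% of these classes, against 68.4% of all starts.

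Base composition and RNA, which had not entered the classes, differed between them as well. In the 300 bases from 250 before to 50 after the start, the median number of CpG dinucleotides was 21 for both marks, 14 for H3K9ac alone, 3 for H3K27ac alone and 2 for no peak, against 13 over all starts. The letters TATAAA, on either strand, occurred in 6.13% of starts with both marks, 9.26% with H3K9ac alone, 23.7% with H3K27ac alone and 25.1% with no peak, against 12.6% of all. GGGCGG on either strand occurred in 66.4, 52.8, 12.3 and 10.8% of these classes, against 46.2% of all, and CCAAT on either strand in 37.7, 37.0, 42.1 and 40.3%, against 38.2%. The palindrome TGACGTCA occurred in 3.30% of starts with both marks and 2.24% of all. These are matches of letters in a window and no evidence of binding.

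Transcripts were counted in 3 control neuron RNA libraries of 60.6 to 69.1 M counted reads. Of genes whose start had both marks, 94.6% reached a CPM (counts scaled to the library total) of 1 in each library. The share was 28.4 to 30.3% for starts with H3K9ac alone, 38.2 to 40.2% for H3K27ac alone and 13.4 to 13.8% for no peak, against 61.3 to 61.5% over all starts. When starts were classed from peaks with a −log10 q of at least 5, these shares were 41.9 to 43.6% for H3K9ac alone and 61.0 to 61.9% for H3K27ac alone. A share of genes over a CPM threshold takes no account of gene length. CPM is a value of the whole gene, so a gene with starts in several classes counted in each. RNA from 1 start was not told apart from that of another.

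The H3K9ac-alone starts with the greatest covered length, named after their values were seen, included genes with little RNA in these libraries. The Uhrf1 start at chr17:56304313 was covered over 999, 987, 993 and 968 bp by H3K9ac and 0 bp by H3K27ac, with 0.908, 0.612 and 0.738 CPM. Pdlim3, which encodes a muscle LIM protein, was covered over 1016, 810, 760 and 1094 bp with 0.290 to 0.348 CPM, and Col27a1, a fibrillar collagen gene, over 693, 1247, 566 and 1029 bp with 1.66 to 2.25 CPM. Sh2b1, an adaptor of insulin and leptin receptors with 66.8 to 85.3 CPM, differed from these: only its start at chr7:126473094 was in the class (399, 1221, 654 and 1914 bp), while its other start had both marks. All 4 overlapped H3K4me3.

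The H3K27ac-alone starts with the greatest covered length, named in the same way, had no H3K4me3. H3K4me1 was present at all 4, as it was at the 4 H3K9ac-alone starts named above. Ucma was covered over 1584, 1607 and 1806 bp by H3K27ac, with 0.297 to 0.420 CPM. The Mylk3 start at chr8:85381041 was covered over 1736, 1175 and 2001 bp, with 1.17 to 1.47 CPM. Serinc2, of the serine incorporator family, had 13.6 to 17.1 CPM, and its start at chr4:130271434 (1776, 1365 and 1611 bp) was in the class while its other starts had both marks. The same held for Prxl2a, a peroxiredoxin-like gene, at chr14:41008245 (1842, 1457 and 1752 bp), which had no RNA value here.

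Lists of genes were read against these classes, for members with a start in the table. All 7 of 10 housekeeping genes with a start had both marks, as did all 8 of 12 plasticity and immediate early genes and all 6 of 8 neuron markers. All 6 of 10 genes of other lineages with a start (Gata1, Pax1, Hoxa9, Hoxd13, Hbb-bs and Alb) had no peak of either mark in any library. Over the housekeeping list the median covered length within 1 kb was 1765 bp for H3K27ac and 1706 bp for H3K9ac. It was 1930 and 1837 bp over the plasticity list and 1973 and 1822 bp over the neuron list. The medians were 1414 and 1442 bp over starts with both marks, the class of all these genes, and 855 and 971 bp over all starts. Windows of a listed gene with several starts were summed, which lengthens its value. Of these 21 genes, 6 had H3K27ac above H3K9ac with no overlap and 2 had H3K9ac above, against 11.7 and 16.8% of all starts. The 2 were Homer1 and Rplp0, a ribosomal protein gene whose difference of -162 bp became 1.5 bp in a window of 0.5 kb. All starts take in 6565 with no peak, which cannot separate the marks. Their shares are thus no like base for genes that all had both marks, and none was computed over starts with both marks.

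The neuron markers included the most unequal start of these lists per length of window. Rbfox3, which encodes the neuronal nuclear antigen NeuN, was covered over 2001, 1831 and 2001 bp by H3K27ac and 1235, 1044, 1104 and 585 bp by H3K9ac (1944 ± 98.2 against 992 ± 283 bp, SD), and its start lay outside the H3K4me3 regions. Slc17a7 was covered over 2001 bp in all 3 H3K27ac libraries, the whole window, and over 1617, 1889, 1759 and 1823 bp by H3K9ac. Bcl11b, a transcription factor of CA1 and other projection neurons, gave 2001 bp in all 3 against 1770 to 1912 bp. Syt1, Neurod6 and Wfs1 overlapped between the marks.

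Of the plasticity genes, Homer1, which encodes a postsynaptic scaffold with an activity-induced short form, was covered over 1531, 2112 and 2441 bp by H3K27ac and 2862, 3482, 3739 and 3156 bp by H3K9ac, summed over the windows of its 2 starts. The groups did not overlap. Nr4a1 was covered over 1869, 1860 and 1851 bp by H3K27ac and 1616, 1630, 1759 and 1773 bp by H3K9ac, again without overlap. Bdnf, the neurotrophin gene with 7 starts in the table, had 8130 ± 1274 bp of H3K27ac and 7294 ± 187 bp of H3K9ac, and Dusp1, a MAP kinase phosphatase gene, had 1897 ± 110 and 1708 ± 103 bp (SD). Both of these overlapped between the marks. The transcripts stood at 73.1 to 101 CPM for Homer1, 70.2 to 84.4 for Nr4a1, 28.6 to 33.2 for Bdnf and 10.2 to 11.1 for Dusp1.

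Markers of other cells that a sort of neuronal nuclei could hold were read in the same way. Of the 3 inhibitory neuron markers, Gad1 and Gad2 had both marks, and Slc32a1, the vesicular GABA transporter gene, was mixed, with 1180, 241 and 0 bp of H3K27ac and 964, 441, 0 and 579 bp of H3K9ac. Prox1 and Dsp of dentate granule cells had both marks. The covered lengths were 1725 ± 247 and 1668 ± 307 bp of H3K27ac and H3K9ac at Gad1 and 3191 ± 211 and 2851 ± 132 bp at Prox1 (SD). Of the 4 astrocyte markers with a start, Slc1a3 had both marks, Gjb6 had H3K9ac alone (387, 818, 363 and 380 bp), Gfap was mixed and Aldh1l1 had no peak. Of the 4 oligodendrocyte markers, Cnp had both marks, Mag and Olig2 had no peak, and Mog had 193 bp of H3K27ac in replicate 1. Of the 3 microglial markers, Cx3cr1 and Aif1 had no peak and P2ry12 had 169 bp in 1 H3K27ac library. Of the endothelial markers, Cldn5 had H3K9ac alone (367, 691, 238 and 507 bp) and Flt1 had H3K9ac in 2 of 4 libraries. In neuron RNA the summed CPM were 21.01 to 25.6 for the astrocyte list, 20.6 to 23.4 for oligodendrocytes, 5.45 to 5.91 for microglia and 0.637 to 0.821 for endothelium, against 3269 to 3518 for the neuron list. In bulk nuclei a mark in fewer cells and less of the mark per cell cannot be told apart, and the part of other cells in the H3K9ac-alone starts was not tested.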

How the data were processed

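The peak lists hold, per peak, its position, its length, the pileup signal at the summit, the ratio of pileup to local background (fold enrichment), and −log10 p and q, as deposited by the authors. Per the file headers, peaks were called in each library separately with MACS 2.1.0.20140616 (2.1.1.20160309 for H3K4me3) at a q-value cutoff of 0.1 and an effective genome of 1.87e+09 bp, the larger of ChIP and input scaled to the smaller, against 1 input for all control libraries. Broad calling was used for H3K4me1 only, per the file headers. The build is mm10/GRCm38, per the submitters' processing notes. The aligner is not given in the sources used here. RNA values as deposited are counts per Ensembl gene, from which CPM was computed on the total. The peak length depends on the caller, its input and the fragment length, and a place without a peak need not lack the mark.

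Overlapping peaks were merged per library, on chromosomes 1 to 19, X and Y. An overlap is 1 shared base unless a setting says otherwise. Library values were compared by two-sided exact permutation tests (35 arrangements), Benjamini-Hochberg adjusted over 10. Regions were fitted with limma 3.58.1 (R 4.3.3, lmFit and eBayes), which was tested on simulated data. Promoters and starts came from RefSeq (GRCm38.p6), matched to RNA by symbol. Lists of other marks and of libraries labelled cKO were used for overlap only. Members, gene lists and tests were chosen with earlier results of these data known. Regions were named by rule: the 4 widest single-mark regions of each mark, the 4 largest called differences each way and the 4 widest regions among those with a peak in all 7 libraries; of the plasticity list, the 4 genes with the largest difference. Exceptions are said in the text. Chromosome 18 was passed over in naming. Alternatives were a −log10 q of at least 5, equal numbers of the strongest peaks, peaks within 1 kb merged, autosomes only, 50% overlap, an offset of 1000 bp, centring, replicate blocks, lane 5 alone and leaving out each library. Subtracting the fragment length, a fold enrichment of at least 4, and the alternatives for starts, widest peaks and single named regions by peak selection were chosen after seeing the data.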

Additional observations from a re-analysis of the deposited data

How the results depend on the processing

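Differences are H3K27ac minus H3K9ac. At a −log10 q of at least 5 the log2 differences in mean, median and 99th percentile of width were 0.126, 0.0065 and 0.35. These did not pass the exact permutation test. The log2 differences in peak number and covered length were 0.97 and 1.09 at that q. There the shares differed more than in the full lists, by -38.5 points (H3K4me3), 36.9 (H3K4me1 without H3K4me3) and -44.1 (length inside H3K4me3). The share of peaks at neither H3K4 mark differed by -0.834 points and by 1.597, -4.94, 0.0845 and 0.446 at that q, among equal numbers of strongest peaks, with 50% overlap and in lane 5. In lane 5 (1 library of each mark, no test) the log2 differences were 0.63 for peak number, 1.14 for covered length, 0.52, 0.47 and 0.65 for mean, median and 99th percentile of width, and the shares differed by -21.1 points (H3K4me3), 20.6 (H3K4me1 without H3K4me3) and -34.2 (length inside H3K4me3).

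Leaving out each library gave 0.46 to 0.68 for peak number, 0.85 to 0.98 for covered length, 0.27 to 0.41, 0.27 to 0.36 and 0.36 to 0.54 for the widths, -18.9 to -16.6, 18.02 to 18.955 and -2.31 to 0.531 points for the shares at H3K4me3, H3K4me1 without it and neither, -31.0 to -29.0 points for length inside H3K4me3 and -3.77 to -1.44 points for starts with a peak. For starts with a peak the ends were those without H3K27ac replicates 1 and 3. These designs cannot go below p = 0.0667 or 0.1 in the exact test.

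H3K27ac replicate 1 carries number 2 in the file naming. With a replicate block the smallest exact p from 3 pairs is 0.25 (adjusted 0.281). Pairing by titles gave 0.59, 0.92, 0.33, 0.31 and 0.43 for peak number, covered length and the 3 widths, and -18.1, 18.6 and -30.6 points for the shares at H3K4me3, H3K4me1 without it and length inside H3K4me3. Pairing by file naming gave 0.55, 0.85, 0.30, 0.27 and 0.40, and -16.7, 18.02 and -29.0 points. Deviations of same-numbered libraries correlated at r = 0.0448, 0.0461 and 0.0632 by titles and 0.0616, 0.0461 and 0.0632 by file naming (across 34136 regions). These values do not settle whether such libraries share more than a number. By file naming each H3K27ac library correlated best with its own number, a hint from the data and not the design. Region calls under the block were 44124 and 4729 by titles, 43220 and 5704 by file naming.

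The share of H3K27ac peaks overlapping the other mark was 41.3%, 35.002% with 50% overlap and 60.01% at the stricter q. For H3K9ac it was 72.7, 70.4 and 91.7%. The stricter q was set on the counted peaks only, not on the regions of the other mark. Shared, H3K27ac-only and H3K9ac-only regions numbered 18982, 15505 and 671 at the stricter q, 21254, 12845 and 1005 at a fold enrichment of at least 4, and 54265, 51862 and 14847 with 2 libraries of a mark enough. Equal numbers of strongest peaks gave 12214 and 4352 for the single-mark classes, and merging within 1 kb gave 11553 and 1435. Requiring 50% of the region covered left 13157 shared regions. Leaving out each library gave 35285 to 36712, 26226 to 40220 and 2468 to 4174, with fewer libraries then needed to keep a region and to enter a class.

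Region calls for H3K27ac and H3K9ac were 25663 and 4577 at the stricter q, 30662 and 8797 among equal numbers of strongest peaks (77.7% for H3K27ac), 27667 and 5655 with peaks merged, 11711 and 4188 with a peak in all 7, and 42220 and 19426 centred. Equal numbers of strongest peaks gave 64 and 526 starts with H3K27ac and H3K9ac alone, and leaving out each library gave 125 to 174 and 224 to 497. The widest 1% differed at H3K4me3 by -27.7 points, -24.955 at the stricter q and -28.3 to -27.3 without each library. Among named items, Rplp0 (-162 bp) gave 1.5 bp in a 0.5 kb window, and Gse1 and Nfix turned to -0.0717 and -0.232 when centred. Gse1 and Nfix were called for H3K27ac at the stricter q (limma adjusted p = 1.57e-05 and 0.00491) and with the 1000 bp offset (0.00401 and 0.0482). The Vars2 region gave -0.889 at the stricter q and was not called (limma adjusted p = 0.571). Coro2b was not called with the replicate block by titles or by file naming (limma adjusted p = 0.108 and 0.121). The causes were not tested.

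The lists hold no reads per region, so differences in height within peaks were not measured, and the depth of all libraries was capped by the 28.8 M tags of 1 input.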
